A study of Mus musculus with 27 samples.

Results

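The maturation of the mouse cortex was followed from postnatal day 10 (P10) to postnatal day 20 (P20) on a qPCR array of 84 synaptic plasticity genes. The pools were taken by their labels of region and age, which gave 6 of the 27 pools of the series, 3 at each age. At each age 1 pool came from germ-free mice (GF), 1 from conventionalized mice (CONV) and 1 from mice given bifidobacteria (BIF), and the P20 pool of a treatment was set against its P10 pool. The study profiled cortex, hippocampus and cerebellum at P4, P10 and P20 to ask how colonization of the gut after birth bears on gene expression in the growing brain. All mice were Swiss Webster mice bred germ-free. GF pups received sterile PBS. CONV pups were colonized indirectly, through dams given a fecal slurry of specific pathogen free mice and through used bedding, and received PBS as a sham. BIF pups were fed a mixture of 4 human Bifidobacterium species on alternating days from P1, and their dams were dosed with the same mixture. A pool joined cortical RNA of 5 male mice, 2 µg from each, and every condition had 1 pool. The 3 treatments therefore stood in for replicates of an age, and the spread between pools of an age held differences of treatment, animals and assay together.

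In the rodent cortex the interval spans eye opening and the approach to weaning, when excitatory synapses form, inhibitory circuits mature and sensory activity begins to drive transcription. NMDA receptors, the glutamate receptors that admit calcium at active synapses, are known to change their subunits over this time, with GluN2A joining the GluN2B that prevails in younger cortex. Immediate early genes are switched on within minutes of neuronal activity, and many molecules of axon guidance and adhesion are most abundant while wiring is still being laid down.

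The array gave a threshold cycle (CT) for each gene in each pool, the PCR cycle at which fluorescence passes a set line. Levels are written on the log2 scale as the mean CT of the reference genes B2m, Gapdh, Gusb and Hsp90ab1 minus the CT of the gene, so that a higher number is a higher level, and they are compared within a gene only. The 504 CTs of the pathway genes in the 6 cortex pools ran from 18.8 to 34.6 cycles, with 0 at the detection limit of 35 and 21 above 30, which came from 6 genes. Wells that repeated the same control within a cortex pool had an SD of 0.165 cycles, or 0.0648 without the CONV pool of P20, in which 1 well stood apart. Genes typical of the forebrain fitted the label of the tissue: the level of Camk2a averaged 2.04 at P10 and 3.42 at P20 in cortex against -3.20 and -1.78 in cerebellum, and that of Gabra5 averaged -0.79 and -2.17 against -6.41 and -8.22. Genes typical of the cerebellum were lower in cortex, with Grm4 at -3.50 and -3.67 in cortex against -0.27 and 1.72 in cerebellum. The 3 P10 pools were run on plate 2 and the 3 P20 pools on plate 5, so that age and plate cannot be told apart.

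Of the 84 genes, 27 were higher at P20 than at P10 (32.1%) and 24 were lower (28.6%) at an adjusted p below 0.05, in limma fits with treatment as a block and p adjusted over the 84 genes; genes that pass are called below, and SE is the standard error of the fitted change. The levels of the 2 ages did not overlap for 61 genes, 49 of them among the 51 called, and 50 of the 51 moved the same way in 3 of 3 pairs, with Bdnf as the exception. A change of 2-fold or more was seen for 13 of the called genes and one of 1.5-fold or more for 33. The split between higher and lower depended on the reference: with Gapdh alone every change shifted by -0.31, and 9 genes were higher and 40 lower, while with Actb added to the reference genes every change shifted by 0.20, and 32 were higher and 13 lower. The median change of all 84 genes was -0.08 with the 4 reference genes and -0.40 with Gapdh, the gene to which the study itself normalized. Without the GF pair the calls numbered 21 higher and 14 lower, without the CONV pair 9 and 11, and without the BIF pair 11 and 9. In the fits without the GF or the BIF pair the named genes shared 1 SE, of 0.227 or 0.311. Calls in those fits therefore followed the size of the change and not the spread of the gene itself. There were 13 genes that were called in the same direction with each of 5 references and with each pair left out in turn, the references being the 4 genes, these with Actb, Gapdh alone, the median of the pathway genes and the positive PCR control. Ppp1r14a, Arc, Grin2c, Nptx2, Camk2a and Synpo were the 6 that rose, and Gabra5, Ncam1, Ephb2, Grip1, Igf1, Reln and Adcy1 were the 7 that fell. In pooled tissue, fewer cells of a type and less RNA per cell cannot be told apart, and the array held no gene that marks only 1 kind of glial cell.

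**Figure D1:**
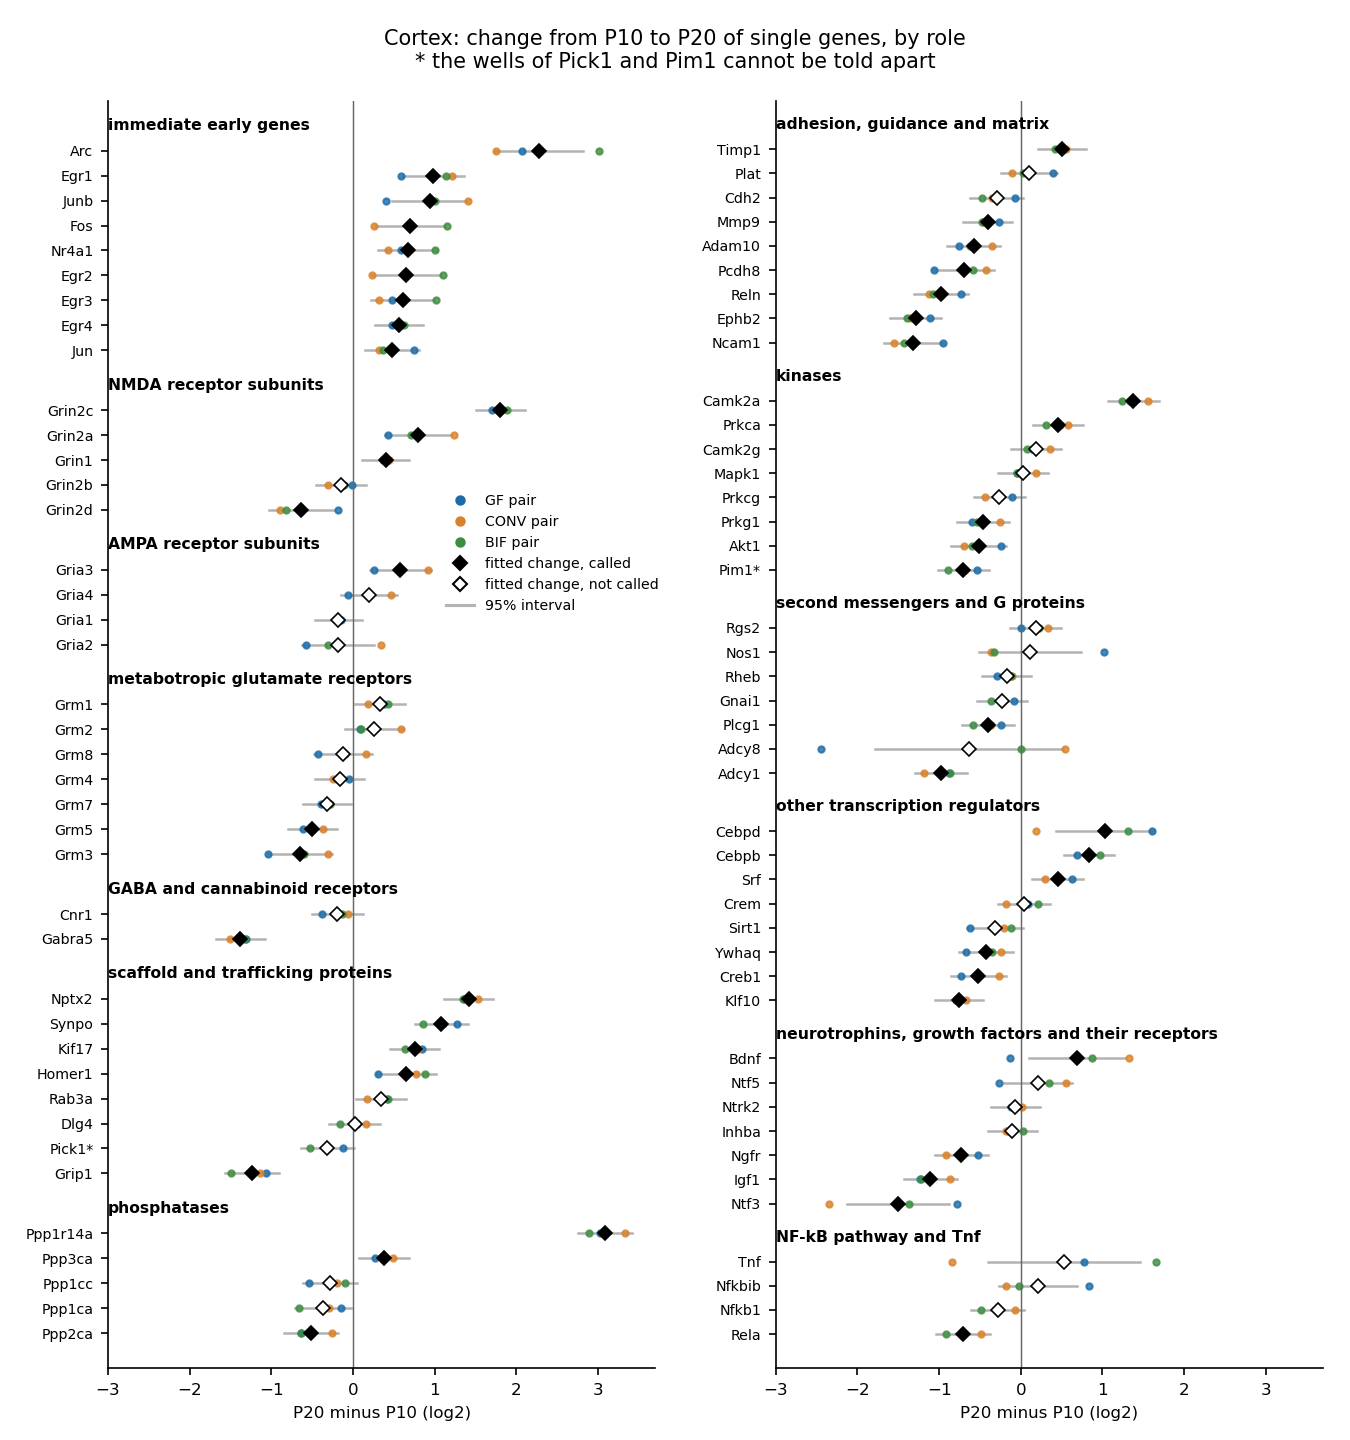
Change from P10 to P20 in cortex of single genes, grouped by role, on the log2 scale relative to 4 reference genes. Colored points are the GF, CONV and BIF pairs, diamonds the fitted change, filled where the adjusted p was below 0.05, and grey lines its 95% interval; the 9 immediate early genes all lie to the right of 0 here, where 2 of them were called with Gapdh as the reference, and 6 of the 9 adhesion, guidance and matrix genes are called to the left.

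The largest rise was that of Ppp1r14a, which encodes an inhibitor of myosin phosphatase and, in brain, is expressed in oligodendrocytes among other cells. Its levels in the GF, CONV and BIF pools were -5.72, -6.43 and -6.06 at P10 and -2.70, -3.10 and -3.17 at P20. The 3 P20 pools lay far above the 3 P10 pools, and the pools of an age stayed close to each other. Ppp1r14a rose by 3.08 ± 0.14 on the log2 scale, 8.47-fold (SE, in 3 of 3 pairs, adjusted p = 4.21e-06).

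Arc encodes a protein of active synapses that drives the removal of AMPA receptors from the membrane. In the GF, CONV and BIF pools its levels were -2.98, -4.01 and -3.92 at P10 and -0.91, -2.26 and -0.91 at P20. Each P20 pool was above each P10 pool, and the CONV pool was the lowest of its age at P10 and, by a wide margin, at P20. Arc rose by 2.28 ± 0.23 on the log2 scale, 4.85-fold (SE, in 3 of 3 pairs, adjusted p = 0.000208), and the pairs ranged from 1.75 in CONV to 3.01 in BIF.

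Nptx2, a secreted pentraxin that gathers AMPA receptors at synapses onto inhibitory neurons, had levels of -3.21, -3.52 and -3.26 at P10 and -1.85, -1.99 and -1.91 at P20 in the same order of pools. The ages were separated in every pair by nearly the same step. Nptx2 rose by 1.42 ± 0.13 on the log2 scale, 2.67-fold (SE, in 3 of 3 pairs, adjusted p = 0.000181). Camk2a, the alpha subunit of the calcium-dependent kinase that is needed for long-term potentiation, had levels of 2.26, 1.79 and 2.07 at P10 and 3.61, 3.34 and 3.31 at P20, again with no overlap. It rose by 1.38 ± 0.13 on the log2 scale, 2.60-fold (SE, in 3 of 3 pairs, adjusted p = 0.000183). Synpo, which encodes the actin-binding synaptopodin of the spine apparatus, was at -1.59, -1.60 and -1.56 at P10 and -0.32, -0.50 and -0.70 at P20. The P10 pools were almost equal and the P20 pools spread more, with GF the highest and BIF the lowest; Synpo rose by 1.08 ± 0.14 on the log2 scale, 2.11-fold (SE, in 3 of 3 pairs, adjusted p = 0.000604).

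Further rises among the 10 largest were in transcription factors. Cebpd, an injury-responsive and cytokine-responsive factor, changed by 1.61, 0.18 and 1.31 in the GF, CONV and BIF pairs, so that the CONV pair hardly moved. Its fitted change was 1.04 ± 0.26 (SE, 3 of 3 pairs, adjusted p = 0.0123), and the call was lost with Gapdh or the PCR control as the reference and with a trended and robust prior (adjusted p = 0.129 in limma). Cebpb, of the same family, changed by 0.69, 0.83 and 0.97, with a fit of 0.83 ± 0.13 (SE, 3 of 3 pairs, adjusted p = 0.00179); without the BIF pair its change was 0.76 and not called, and with the PCR control it was 0.37 and not called. The other 3 of the 10 are given with their lists, Grin2c with the NMDA receptor subunits and Egr1 and Junb with the immediate early genes.

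**Figure D2:**
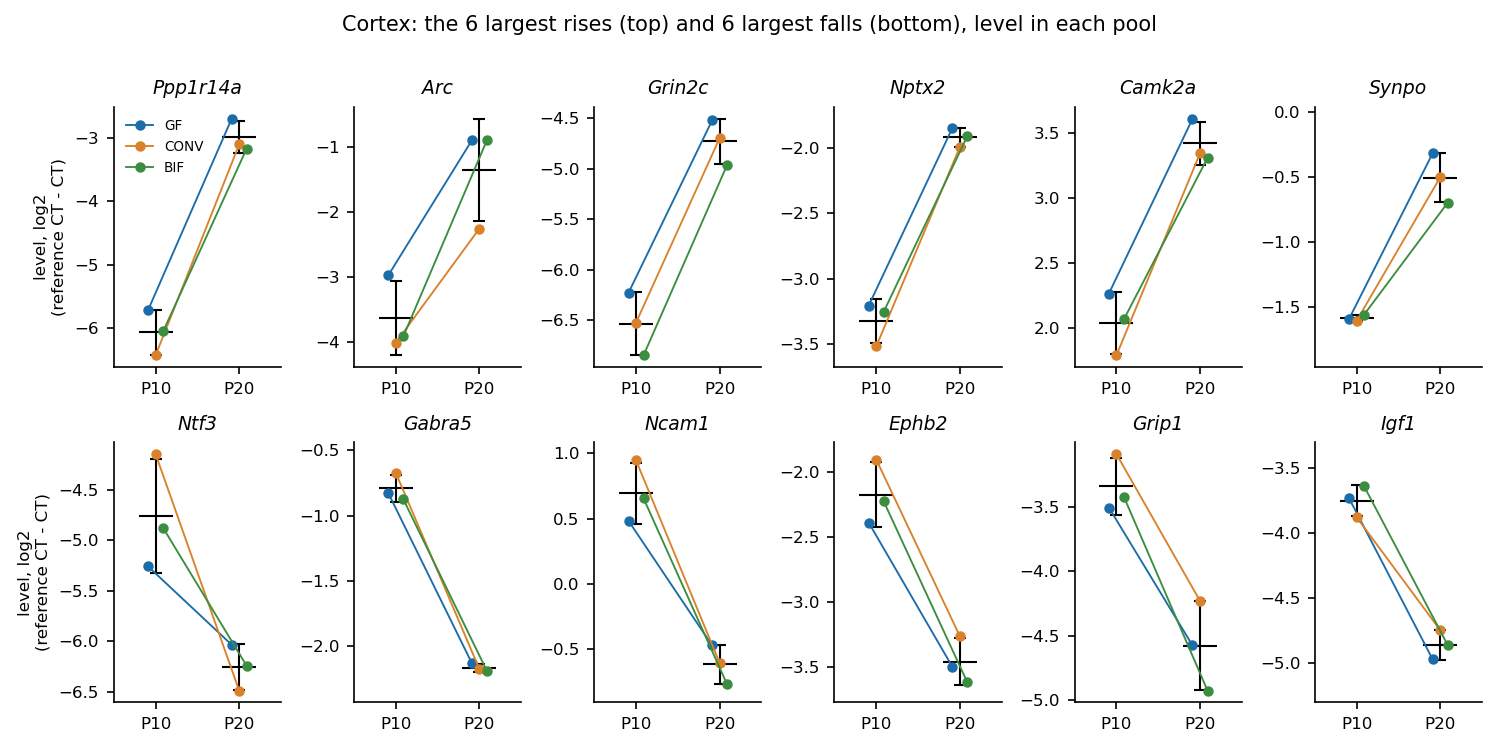
Levels of the genes with the 6 largest rises and the 6 largest falls in each cortex pool, on the log2 scale as the mean reference CT minus the CT of the gene. Lines join the P10 and P20 pools of a treatment, and black bars are the mean and SD of 3 pools; in each of the 12 genes the pools of the 2 ages do not overlap.

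The largest fall was that of Ntf3, which encodes the neurotrophin NT-3. Its levels in the GF, CONV and BIF pools were -5.26, -4.14 and -4.88 at P10 and -6.04, -6.49 and -6.25 at P20. All P20 pools were below all P10 pools, but the CONV pool was the highest at P10 and the lowest at P20. Ntf3 changed by -1.50 ± 0.27 (SE, 3 of 3 pairs, adjusted p = 0.00303), 2.83-fold down, with pairs at -0.78, -2.35 and -1.37; without the CONV pair the change was -1.07 and not called, and with a trended and robust prior it was not called (adjusted p = 0.0879 in limma).

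Gabra5 encodes the alpha-5 subunit of GABA-A receptors, which in young cortex serves largely tonic inhibition. Its levels were -0.83, -0.67 and -0.88 at P10 and -2.14, -2.18 and -2.20 at P20 in the GF, CONV and BIF pools. The pools of an age lay close together and the ages far apart, and Gabra5 fell by 1.38 ± 0.13 on the log2 scale, 2.60-fold (SE, in 3 of 3 pairs, adjusted p = 0.000181).

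Genes of adhesion, guidance and matrix mostly fell: 6 of 9 were lower at P20 and 1 was higher, where 24 and 27 of all 84 genes were, with a median change of -0.58 against -0.08. With 5 reference genes 4 were lower, with Gapdh 7, and 3, 4 and 3 of the 7 calls were kept without the GF, CONV and BIF pair. Ncam1, the neural cell adhesion molecule, had levels of 0.48, 0.95 and 0.66 at P10 and -0.48, -0.61 and -0.78 at P20, with every P20 pool below every P10 pool, and fell by 1.32 ± 0.16 on the log2 scale, 2.49-fold (SE, in 3 of 3 pairs, adjusted p = 0.000423). Ephb2, a receptor for ephrin-B ligands in axon guidance and at synapses, had levels of -2.39, -1.90 and -2.23 at P10 and -3.50, -3.26 and -3.62 at P20. The ages did not overlap and the CONV pool was the highest at both; Ephb2 fell by 1.29 ± 0.13 on the log2 scale, 2.44-fold (SE, in 3 of 3 pairs, adjusted p = 0.000208). Reln, the extracellular protein that places migrating neurons and is later made by interneurons, had levels of -2.04, -1.57 and -2.09 at P10 and -2.77, -2.70 and -3.17 at P20 and fell by 0.98 ± 0.14 on the log2 scale, 1.97-fold (SE, in 3 of 3 pairs, adjusted p = 0.00105). Ephb2 and Reln were assigned to their wells by their place in the array order alone. The matrix inhibitor Timp1 was the 1 gene of the list that was higher, at 0.50 ± 0.13 (SE, 3 of 3 pairs, adjusted p = 0.0128), and its call was lost with each pair left out and with Gapdh, the pathway median and the PCR control. It was singled out after its values were seen.

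Scaffold and trafficking proteins moved both ways, with 4 of 8 higher and 1 lower, where 27 and 24 of all 84 genes were, and a median change of 0.50. With the PCR control as the reference 2 were higher and 2 lower, and 5, 4 and 4 of the 5 calls were kept without the GF, CONV and BIF pair. Against Nptx2 and Synpo stood Grip1, a scaffold that binds the tails of AMPA receptor subunits. Its levels were -3.51, -3.09 and -3.43 at P10 and -4.58, -4.23 and -4.93 at P20 in the GF, CONV and BIF pools, with no overlap, and it fell by 1.24 ± 0.14 on the log2 scale, 2.35-fold (SE, in 3 of 3 pairs, adjusted p = 0.000390). The list shares with the kinases a pair of neighbouring wells that belong to Pick1 and Pim1 in an order that could not be told apart, and with the 2 exchanged the list held 4 higher and 2 lower genes and the kinases 2 and 2 in place of 2 and 3.

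Igf1 encodes a growth factor made in cortex by neurons and microglia. Its levels in the GF, CONV and BIF pools were -3.74, -3.88 and -3.65 at P10 and -4.98, -4.75 and -4.87 at P20. All P20 pools lay below all P10 pools, and Igf1, placed by array order alone, fell by 1.11 ± 0.14 on the log2 scale, 2.16-fold (SE, in 3 of 3 pairs, adjusted p = 0.000557). Ngfr, the p75 neurotrophin receptor, changed by -0.53, -0.92 and -0.74 in the 3 pairs, with a fit of -0.73 ± 0.14 (SE, 3 of 3 pairs, adjusted p = 0.00405); without the CONV or the BIF pair the change was -0.63 or -0.72 and not called. Of the 8 neurotrophins, growth factors and receptors, 2 were higher and 3 lower, near the 27 and 24 of all 84 genes; with Gapdh 5 were lower and none higher, and 1 and 2 of the 5 calls were kept without the CONV and the BIF pair. Bdnf, the neurotrophin released with activity and named here after its values were seen, was higher by 0.69 ± 0.25 (SE, 2 of 3 pairs, adjusted p = 0.0469). In Bdnf the GF pair went the other way, at -0.13, and the change was 1.10 without it, 0.37 and not called without the CONV pair, and 0.60 and not called without the BIF pair. Bdnf was not called with Gapdh, the pathway median or the PCR control as the reference.

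Adcy1, the calcium-activated adenylyl cyclase of the barrel cortex, had levels of 0.24, 0.60 and 0.22 at P10 and -0.64, -0.59 and -0.66 at P20. The CONV pool was the highest at P10, the P20 pools were nearly equal, and Adcy1 fell by 0.98 ± 0.14 on the log2 scale, 1.97-fold (SE, in 3 of 3 pairs, adjusted p = 0.000904). It was 1 of 2 genes lower among 7 second messengers and G proteins, the share seen over all 84 genes, and the median change was -0.23. In this list 0 genes were higher, where 27 of all 84 were. Klf10, a transcriptional repressor induced by TGF-beta, changed by -0.80, -0.67 and -0.79, with a fit of -0.75 ± 0.13 (SE, 3 of 3 pairs, adjusted p = 0.00235); without the BIF pair the change was -0.73 and not called. The kinases held 2 higher and 3 lower genes of 8, the phosphatases 2 and 1 of 5, and NF-kB with Tnf 0 and 1 of 4, while a list of other transcription regulators, which also took in the adaptor protein Ywhaq as 1 of its lower genes, held 3 and 3 of 8. These counts lay on both sides of the shares over all 84 genes, of which 27 were higher and 24 lower. They turned on the settings: with 5 reference genes the kinases had 3 higher and 1 lower, and without the CONV or the BIF pair the kinases kept 1 of 5 calls.

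The 5 NMDA receptor subunits did not move together, and 3 were higher, 1 was lower and 1 was not called, where 27 and 24 of all 84 genes were higher and lower; with Gapdh or the PCR control 1 was higher and 2 were lower. Grin1, the subunit that every NMDA receptor holds, had levels of 0.27, 0.07 and 0.10 at P10 and 0.65, 0.51 and 0.48 at P20 in the GF, CONV and BIF pools and changed by 0.40 ± 0.13 (SE, 3 of 3 pairs, adjusted p = 0.0258), with no overlap of the ages. This rise was the smallest of the 3, and it was not called with Gapdh, with the pathway median, with the PCR control or with any pair left out; with the PCR control as the reference its change was -0.0622. Grin2a, the GluN2A subunit of maturing synapses, had levels of -1.85, -2.42 and -2.15 at P10 and -1.42, -1.19 and -1.44 at P20 and changed by 0.79 ± 0.17 (SE, 3 of 3 pairs, adjusted p = 0.00778). The CONV pool had the lowest level at P10 and the highest at P20, and without the CONV pair the change was 0.57 and not called, as it also was not with Gapdh, the pathway median or the PCR control.

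Grin2c, the GluN2C subunit that is most abundant in cerebellar granule cells and also occurs in astrocytes, had levels of -6.23, -6.52 and -6.85 at P10 and -4.53, -4.70 and -4.97 at P20. GF was the highest and BIF the lowest at both ages, the pairs moved by nearly equal steps of 1.70, 1.82 and 1.88, and Grin2c rose by 1.80 ± 0.13 on the log2 scale, 3.49-fold (SE, in 3 of 3 pairs, adjusted p = 4.88e-05). Grin2d, the GluN2D subunit of interneurons and early development, had levels of -2.10, -1.44 and -1.96 at P10 and -2.29, -2.34 and -2.78 at P20 and changed by -0.64 ± 0.17 (SE, 3 of 3 pairs, adjusted p = 0.0158). The ages did not overlap, though the GF pair moved by only -0.19, and without the CONV or the BIF pair the call was lost at -0.50 and -0.54, as it was with 5 reference genes at -0.43. Grin2b, the GluN2B subunit of young synapses, had levels of -0.55, -0.25 and -0.49 at P10 and -0.57, -0.56 and -0.60 at P20. The P20 pools were almost equal and just below the P10 pools, and the change of -0.15 ± 0.13 (SE, 3 of 3 pairs, adjusted p = 0.348) was not called; with Gapdh and with the PCR control it was called lower at -0.46 and -0.61, with 5 reference genes it was 0.0573, and without the CONV pair -0.0638. Between the subunits the order of change, Grin2c above Grin2a, Grin1, Grin2b and Grin2d, is the same with any reference, which shifts all genes of a pool alike.

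AMPA receptors carry most fast excitation, and 1 of 4 subunits was higher, near the 27 of all 84 genes, with a median change of 0.01 that was -0.30 with Gapdh. Gria3 had levels of -1.29, -1.77 and -1.56 at P10 and -1.04, -0.86 and -0.99 at P20 in the GF, CONV and BIF pools, with no overlap, and changed by 0.58 ± 0.16 (SE, 3 of 3 pairs, adjusted p = 0.0160). Its call was lost with Gapdh, the pathway median and the PCR control, without the CONV pair at 0.41 and without the BIF pair at 0.58. Gria1 was at 0.20, 0.11 and 0.21 at P10 and 0.06, -0.08 and 0.01 at P20, and its change of -0.18 ± 0.12 (SE, 3 of 3 pairs, adjusted p = 0.246) was not called with the 4 reference genes but was called lower with Gapdh, at -0.49, and with the PCR control, at -0.64, and had the other sign with 5 reference genes, at 0.0240. Gria2, the subunit that makes AMPA receptors impermeable to calcium, was at 0.21, 0.05 and 0.39 at P10 and -0.37, 0.39 and 0.08 at P20, where the ages overlapped and the CONV pair went up while the others went down. Its change of -0.18 ± 0.19 (SE, 2 of 3 pairs, adjusted p = 0.404) was 0.0163 without the GF pair, of the other sign, and -0.44 without the CONV pair. Gria4 was at -1.89, -2.11 and -2.10 at P10 and -1.95, -1.65 and -1.92 at P20, with overlap and a change of 0.20 ± 0.15 (SE, 2 of 3 pairs, adjusted p = 0.268), which was 0.32 without the GF pair, 0.0612 without the CONV pair and, of the other sign, -0.12 with Gapdh. Gria1, Gria3 and Gria4 were assigned by array order alone. Of 7 metabotropic glutamate receptors 2 were lower, the share seen over all 84 genes (28.6%), and 0 were higher, where 27 of all 84 were. The direction turned with the reference, since 2 were higher and none lower with 5 reference genes, and no call was kept with any pair left out.

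**Figure D3:**
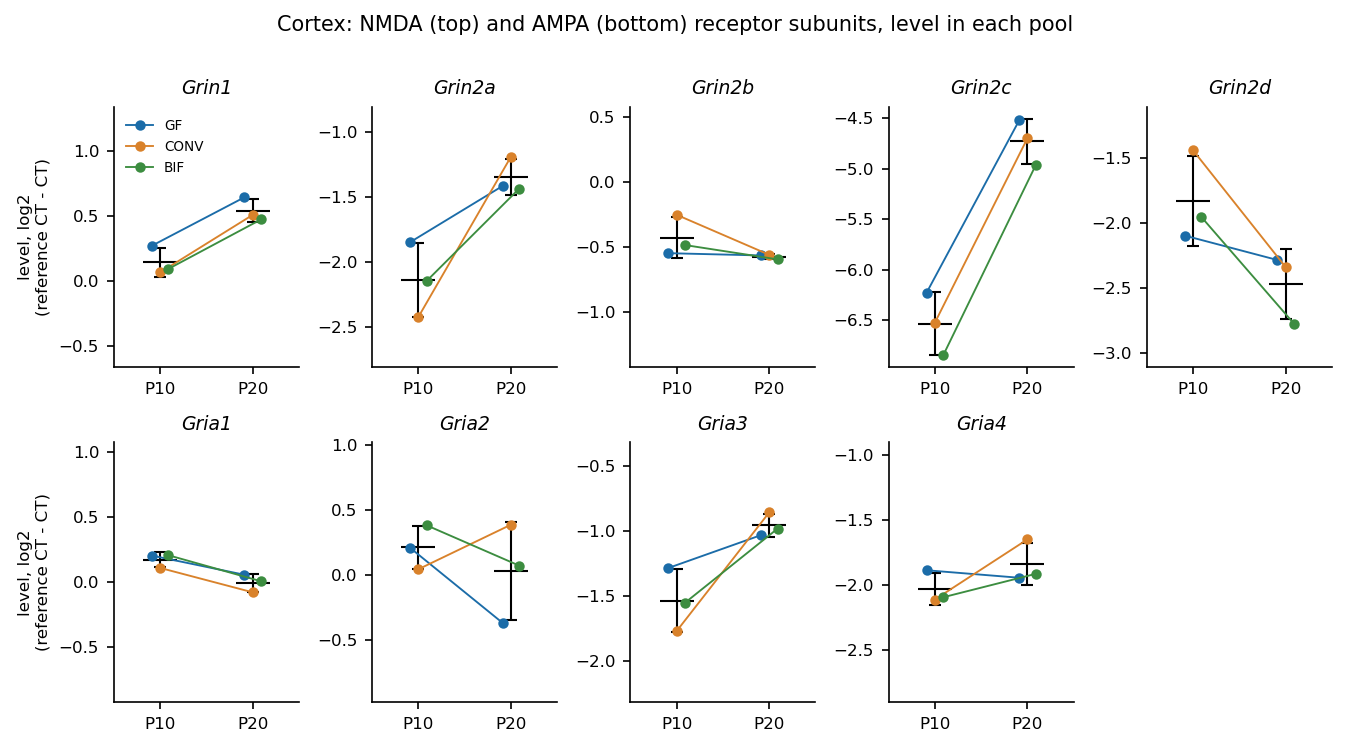
Levels of the 5 NMDA and 4 AMPA receptor subunits in each cortex pool, on the log2 scale as the mean reference CT minus the CT of the gene. Lines join the P10 and P20 pools of a treatment, and black bars are the mean and SD of 3 pools; Grin2c, at 1.80, has the largest step, while Gria2 and Gria4 overlap between the ages.

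The 9 immediate early genes were all higher at P20 with the 4 reference genes, where 27 of all 84 genes were, and their median change was 0.67 against -0.08. With Gapdh as the reference 2 of the 9 were called and the median was 0.36, with the pathway median as the reference 2 were called, and with the PCR control 1 was called; the sign of the change was positive for each of the 9 with each of these references. Without the GF, CONV or BIF pair 8, 1 and 3 of the 9 were called, and in a fit of all 27 pools Egr4 and Fos were not (adjusted p = 0.246 and 0.145 in limma). Apart from Arc, the list holds transcription factors, and Arc and Egr1 were the 2 called with Gapdh.

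Egr1, a zinc finger factor induced by visual experience, had levels of -0.93, -1.72 and -1.27 at P10 and -0.35, -0.51 and -0.13 at P20 in the GF, CONV and BIF pools. The ages did not overlap, and Egr1 rose by 0.98 ± 0.16 on the log2 scale, 1.97-fold (SE, in 3 of 3 pairs, adjusted p = 0.00223); without the CONV pair its change was 0.86 and not called. Junb, a partner in AP-1 dimers, had levels of -7.72, -8.08 and -8.10 at P10 and -7.32, -6.67 and -7.10 at P20 and changed by 0.94 ± 0.20 (SE, 3 of 3 pairs, adjusted p = 0.00641), with the smallest step in GF, and without the CONV pair the change was 0.70 and not called. Fos, a classical AP-1 member, had levels of -4.78, -4.93 and -5.04 at P10 and -4.09, -4.68 and -3.89 at P20 and changed by 0.70 ± 0.18 (SE, 3 of 3 pairs, adjusted p = 0.0144). The order of the pairs varied over the list: the CONV pair moved least and the BIF pair most in 5 of the 9, which were Arc, Fos, Nr4a1, Egr2 and Egr3, while in Egr1 and Junb the CONV pair moved most, at 1.21 and 1.41. The CONV and BIF changes were 0.25 and 1.15 in Fos, 0.23 and 1.10 in Egr2 and 0.32 and 1.02 in Egr3.

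Nr4a1, an orphan nuclear receptor, was at -2.57, -2.71 and -2.95 at P10 and -1.99, -2.29 and -1.95 at P20, with no overlap, and changed by 0.67 ± 0.15 (SE, 3 of 3 pairs, adjusted p = 0.00878). Egr2 changed by 0.65 ± 0.18 (SE, 3 of 3 pairs, adjusted p = 0.0160), and its ages overlapped, since the CONV pool at P20 lay below the GF pool at P10. Egr3 changed by 0.61 ± 0.17 (SE, 3 of 3 pairs, adjusted p = 0.0160) and Egr4 by 0.56 ± 0.13 (SE, 3 of 3 pairs, adjusted p = 0.00857), both without overlap. Egr4 had the most even pairs of the list, at 0.48, 0.58 and 0.62. Jun, assigned by array order alone, changed by 0.48 ± 0.14 (SE, 3 of 3 pairs, adjusted p = 0.0215). Without the CONV pair the changes of Fos, Nr4a1, Egr2, Egr3 and Egr4 were 0.92, 0.79, 0.86, 0.75 and 0.55, and without the BIF pair 0.47, 0.50, 0.43, 0.40 and 0.53, none of them called. Jun was not called with any pair left out, at 0.34, 0.56 and 0.53 without GF, CONV and BIF.

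Because the immediate early genes moved the same way, the 250 bases before the start of 4 of them are shown, from RefSeq on build GRCm38.p6. RefSeq promoters were at hand for 6 of the 9, namely Egr2, Egr4, Fos, Jun, Junb and Nr4a1, and not for Arc, Egr1 and Egr3. Capitals mark TGACG on either strand (written CGTCA where it lies on the other strand), the core of the element bound by CREB, and the CArG box (CC, 6 of A or T, GG), the element bound by serum response factor; no match overlaps another. Of 32851 RefSeq promoters 17.8% hold TGACG, 1.47% a CArG box and 1.55% the full element TGACGTCA over the same length, counting both strands. The 6 genes have 10 listed starts, 5 of them of Egr2, which overlap in part; TGACG lies before 7 of the 10, with 3 of the 5 of Egr2 among them, a CArG box before 4, all of Egr2, and TGACGTCA before none. Jun holds neither TGACG nor a CArG box, Junb holds 1 TGACG, and the 4 stretches printed were picked because they hold matches. The stretches are chr12:85473640-85473889 on the plus strand for Fos, chr15:101266596-101266845 on the plus strand for Nr4a1, chr6:85513590-85513839 on the minus strand for Egr4 and, for 1 of the 5 starts of Egr2, chr10:67537619-67537868 on the plus strand.
Fos: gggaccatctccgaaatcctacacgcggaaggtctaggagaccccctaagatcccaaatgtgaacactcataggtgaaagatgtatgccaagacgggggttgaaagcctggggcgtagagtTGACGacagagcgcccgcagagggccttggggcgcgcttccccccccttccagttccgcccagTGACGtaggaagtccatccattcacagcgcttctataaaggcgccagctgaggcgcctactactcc
Nr4a1: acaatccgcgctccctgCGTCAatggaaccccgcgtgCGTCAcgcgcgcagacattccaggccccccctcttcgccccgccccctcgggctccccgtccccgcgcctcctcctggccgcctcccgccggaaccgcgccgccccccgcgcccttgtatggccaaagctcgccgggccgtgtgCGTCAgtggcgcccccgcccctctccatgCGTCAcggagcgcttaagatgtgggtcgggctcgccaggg
Egr4: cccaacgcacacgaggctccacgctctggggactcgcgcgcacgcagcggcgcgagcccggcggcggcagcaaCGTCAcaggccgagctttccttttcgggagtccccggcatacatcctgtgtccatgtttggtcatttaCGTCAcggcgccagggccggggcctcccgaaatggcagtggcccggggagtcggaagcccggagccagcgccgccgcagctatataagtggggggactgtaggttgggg
Egr2: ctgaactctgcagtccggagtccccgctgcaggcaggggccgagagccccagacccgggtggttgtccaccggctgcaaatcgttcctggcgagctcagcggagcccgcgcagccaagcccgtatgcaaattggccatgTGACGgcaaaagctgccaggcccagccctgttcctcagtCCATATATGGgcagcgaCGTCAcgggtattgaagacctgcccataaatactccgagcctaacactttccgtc
The matches describe the sequences only, sites beyond the 250 bases were not searched, and no binding was measured. The stretch of Fos holds 2 copies of TGACG, that of Nr4a1 4, that of Egr4 2, and that of Egr2 2 with 1 CArG box. Srf, the serum response factor, was itself at -2.86, -2.77 and -2.99 at P10 and -2.23, -2.48 and -2.56 at P20 and changed by 0.45 ± 0.13 (SE, 3 of 3 pairs, adjusted p = 0.0211), while Creb1 was at -2.93, -3.17 and -2.98 at P10 and -3.67, -3.44 and -3.53 at P20 and changed by -0.52 ± 0.14 (SE, 3 of 3 pairs, adjusted p = 0.0160). Srf, placed by array order alone, was not called with Gapdh and stood at -0.00889 with the PCR control, Creb1 was not called with 5 reference genes, and neither was called with any pair left out; both were singled out after their values were seen.

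The changes of Adcy8 and Tnf differed most between the pairs, with ranges of 2.99 and 2.49. Adcy8, another calcium-activated adenylyl cyclase, changed by -2.45, 0.54 and 0.00 in the GF, CONV and BIF pairs. Its GF pool at P20, at -8.54, lay far below the 5 others, which ran from -6.34 to -5.80, and the change was 0.27 without the GF pair, of the other sign, -1.22 without CONV and -0.95 without BIF. In the fit without BIF, where the named genes shared a common SE, Adcy8 was called lower despite its uneven pairs. Tnf, the inflammatory cytokine, was near the detection limit, with a mean CT of 33.7, and changed by 0.77, -0.84 and 1.65, so that the ages overlapped; its change was -0.0325 without the BIF pair and 1.21 without the CONV pair. The next was Ntf3, whose range of 1.57 was little above those of Bdnf and Cebpd, at 1.45 and 1.43. With all pairs in the fit neither Adcy8 nor Tnf was called, at adjusted p of 0.277 and 0.268 in limma.

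The reference genes did not keep a constant CT between the ages. The CTs of Actb in the GF, CONV and BIF pools were 18.9, 18.4 and 18.4 at P10 and 20.2, 19.6 and 19.9 at P20, a rise of 1.34 cycles in the mean with no overlap, or -1.01 relative to the other 4. These are the values of well H01, which was taken as Actb, and well G12 as Ywhaq, although the supplementary table of the study lists the 2 genes in the other order; the well taken as Ywhaq changed by -0.42. Gusb went from 26.2, 26.1 and 26.0 to 27.2, 26.7 and 26.8 and Hsp90ab1 from 19.5, 19.3 and 19.3 to 20.0, 19.7 and 19.8, by 0.813 and 0.500 cycles in the mean. Gapdh, at 19.4, 19.4 and 19.4 and 19.5, 19.1 and 19.5, and B2m, at 23.0, 23.2 and 22.9 and 23.5, 22.9 and 22.7, moved by 0.0167 and -0.0167 cycles. The study itself normalized to Gapdh, which it reports as the most stable of the reference genes on all its panels. Each pool was run from 500 ng of RNA, and which reference comes closest to an equal amount of cortex was not tested.

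Among the control wells, the positive PCR control averaged 19.8 cycles at P10 and 19.7 at P20. The reverse transcription control averaged 21.0 at both ages, while its median was 21.05 at P10 and 20.95 at P20. Of the 3 reverse transcription wells of the CONV pool at P20 1 stood apart at 21.9, where its neighbours were at 21.0 and 21.0. The genomic DNA control was at 35 in all 6 pools. The BIF cortex pool of P4 was run on plate 5 with the P20 pools, and gives levels of another age on that plate. From P4 on plate 5 through P10 on plate 2 to P20 on plate 5, the BIF levels were -8.88, -6.85 and -4.97 for Grin2c, -4.22, -3.26 and -1.91 for Nptx2, and 1.40, 0.66 and -0.78 for Ncam1. In these 3 genes, picked as examples, the P10 level lay between those of P4 and P20, as it did in 24 of the 27 higher genes, 18 of the 24 lower and 56 of all 84. It did not in Igf1, at -4.12, -3.65 and -4.87, Klf10, at -5.74, -5.32 and -6.11, or Cebpd, at -6.04, -6.16 and -4.85, and the part of the plates was not tested.

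**Figure D4:**
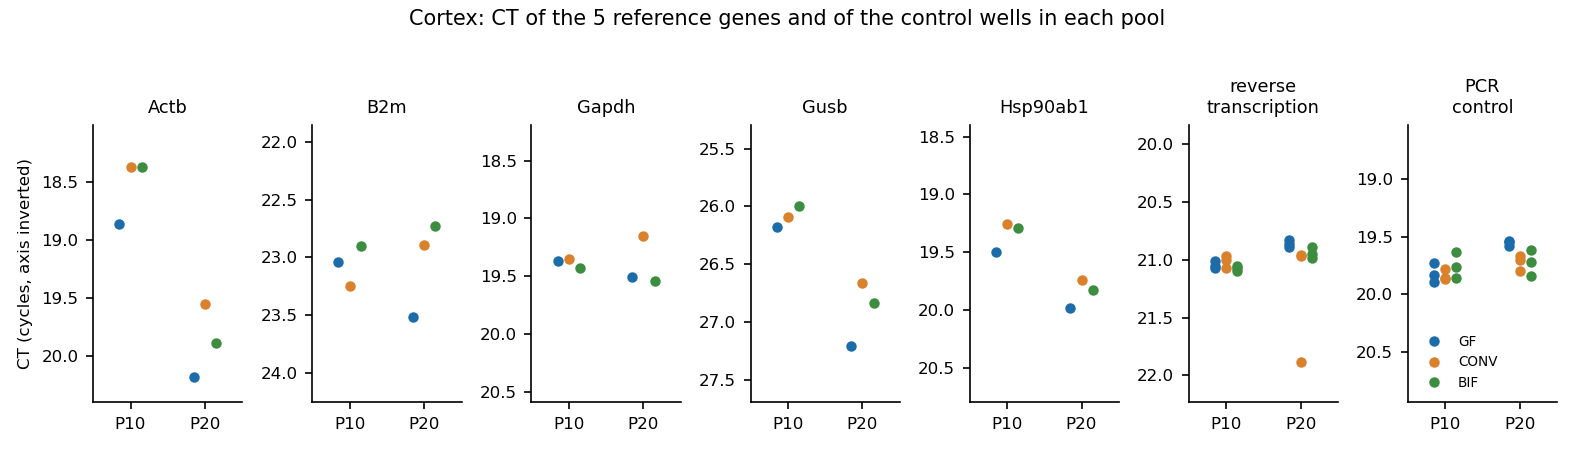
CT of the 5 reference genes and of the wells that control reverse transcription and PCR, in each cortex pool at P10 (plate 2) and P20 (plate 5), with the axis inverted so that higher is more template and each panel spanning the same number of cycles. Actb, Gusb and Hsp90ab1 are lower at P20 in all pools, by 1.34, 0.813 and 0.500 cycles in the mean, while Gapdh and B2m overlap between the ages; 1 reverse transcription well of the CONV pool at P20 stands apart.

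The change in cortex was then set against that of the same age step in the other regions, with the difference itself tested in 1 limma fit of 18 pools. In hippocampus and in cerebellum, too, the P10 and P20 pools were run on different plates, and both comparisons share the cortex pools. Against hippocampus 10 of 84 genes differed (11.9%), 8 with the higher change in cortex and 2 with the lower. Nptx2 changed by -0.11, -0.22 and -0.27 in the GF, CONV and BIF pairs of hippocampus, where those of cortex were 1.36, 1.53 and 1.35, a difference of 1.61 ± 0.12 (SE, adjusted p = 1.85e-05). This was the only one of the 10 that was still called without the BIF pair. Adcy1 changed by 0.32, 0.36 and 0.42 in hippocampus and by -0.88, -1.19 and -0.87 in cortex, a difference of -1.34 ± 0.19 (SE, adjusted p = 0.00285). Ntf3 changed by 0.48, 0.42 and 0.21 in hippocampus, with every pair on the other side of 0 from its cortex pair, and differed by -1.86 ± 0.38 (SE, adjusted p = 0.0146); without the BIF pair the differences of Adcy1 and Ntf3 were -1.37 and -2.01 and not called. Grin2c, Camk2a, Egr2 and Egr4 also had the higher change in cortex, by 1.05, 0.82, 1.16 and 0.80. Ppp1r14a, with the largest rise in cortex, changed by 2.84, 3.43 and 2.29 in hippocampus, and the difference of 0.23 ± 0.26 (SE, adjusted p = 0.646) was not called. The count was 17 with Gapdh, 6 of them among the 10, and 5 and 4 with the pathway median and the PCR control.

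Against cerebellum 40 of 84 genes differed (47.6%), 12 with the higher change in cortex and 28 with the lower. Grin2b changed by -3.32, -2.69 and -2.98 in the GF, CONV and BIF pairs of cerebellum against -0.02, -0.31 and -0.11 in cortex, a difference of 2.85 ± 0.18 (SE, adjusted p = 2.36e-06). Ngfr was lower at P20 in every pair of both regions, at -3.03, -3.95 and -3.64 in cerebellum, and differed by 2.81 ± 0.26 (SE, adjusted p = 2.88e-05). Adcy1 changed by 1.10, 1.86 and 1.46 in cerebellum, opposite to cortex in every pair, with a difference of -2.45 ± 0.19 (SE, adjusted p = 1.02e-05). Of the 7 metabotropic glutamate receptors 5 had the lower change in cortex and 1 the higher, and their median change was -0.17 in cortex and 0.86 in cerebellum, where the median of all 84 genes was 0.27. Nptx2 again had the higher change in cortex, by 2.35 ± 0.12 (SE, adjusted p = 7.04e-07), with -0.89, -0.97 and -0.93 in the cerebellum pairs. Without the GF, CONV or BIF pair 25, 37 and 20 genes differed, and with the PCR control as the reference 23 did.

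**Figure D5:**
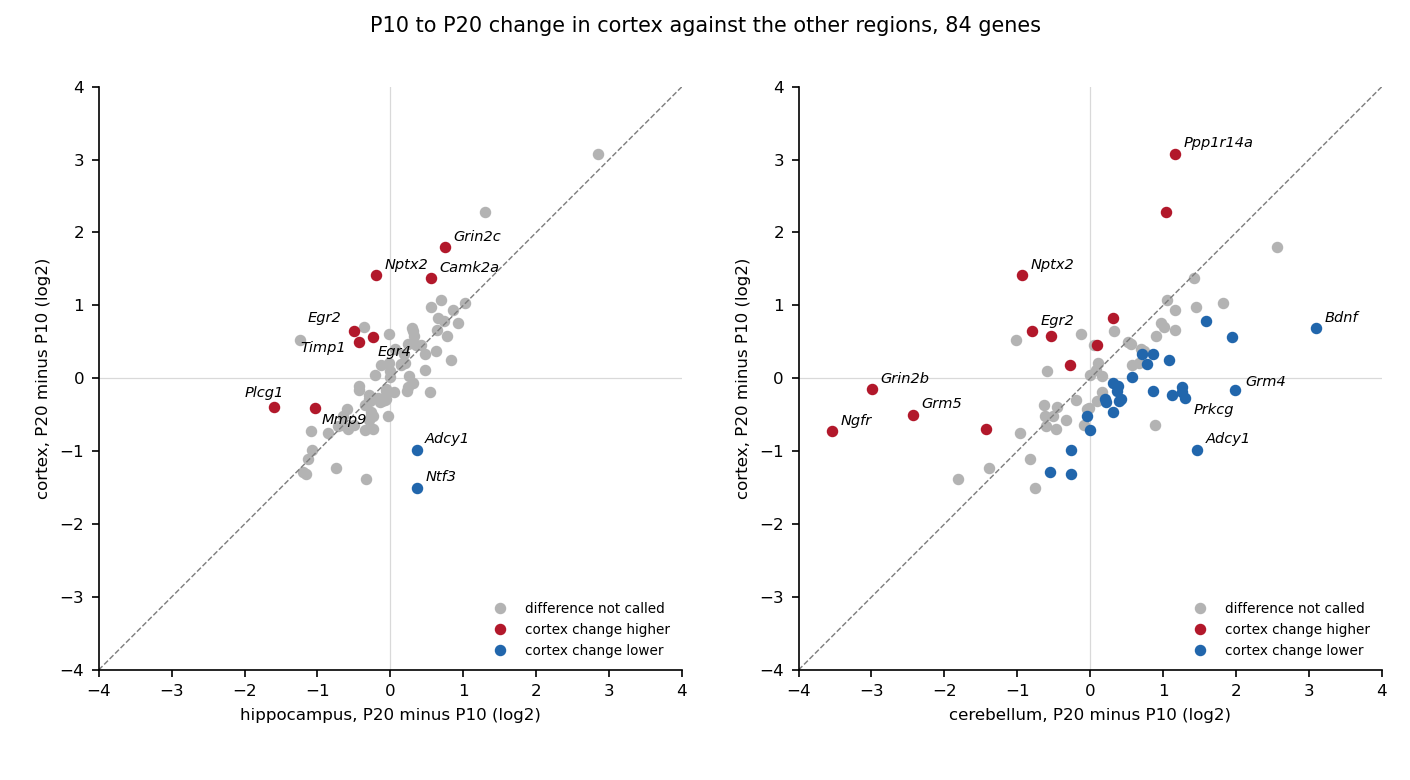
Change from P10 to P20 of the 84 genes in cortex against the change in hippocampus and in cerebellum, both on the log2 scale relative to 4 reference genes, with the dashed line at equal change. Colored points are genes whose difference between the regions was called, 10 against hippocampus and 40 against cerebellum, and the 10 largest differences in each are named.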

How the data were processed

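The authors deposited raw CT values for the 96 wells of each pool, without normalization, with the threshold set by hand and a detection limit of 35; these are the values used. A deposited file of fold changes holds their comparisons of colonized with germ-free pools and was not used. Wells carry no gene names: 49 pathway genes were placed by listed values that fit 1 well, 13 by values shared with other wells and 22 by array order. Synpo, Ncam1, Cebpb and Grin2b were among the 13, each with 1 listed value that fitted other wells too. Levels were the mean CT of 4 reference genes minus the CT of a gene. Scripts ran in Python 3.11.15 with pandas 2.3.3 and matplotlib 3.10.9, and ages were compared with limma 3.58.1 in R 4.3.3 (lmFit and eBayes, two-sided, treatment as a block, Benjamini-Hochberg over 84 genes), which was tested on simulated data. Pools were paired by treatment, and deviations of paired pools from the age means correlated across genes at 0.18, 0.15 and 0.10 in the germ-free, conventionalized and bifidobacteria pools, and those of unmatched pools at -0.27 to 0.19. Named genes were the 10 largest called rises and falls with the same direction in 3 pairs, all NMDA and AMPA subunits, immediate early genes and reference genes, the 3 widest ranges over pairs and the 3 largest called differences per region. The members and the 13 lists were chosen with earlier results of these data known. The values of 1 gene are not reported here. Alternatives were other references, a filter on mean CT above 30, no block, all 27 pools, a trended and robust prior, a pair left out, and 1.5-fold thresholds.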

Additional observations from a re-analysis of the deposited data

Results flagged for a closer look

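For 7 of the 36 genes chosen by the naming rule the change from P10 to P20 differed from that in hippocampus, and for 15 from that in cerebellum, where 10 and 40 of all 84 genes did (11.9% and 47.6%), by the limma test of the difference between regions; the rule itself took in the 3 largest called differences per region. Values are the log2 change in cortex minus that in the other region. Against hippocampus, the difference was 1.61 for Nptx2, 1.16 for Egr2, 1.05 for Grin2c, 0.82 for Camk2a and 0.80 for Egr4, and -1.86 for Ntf3 and -1.34 for Adcy1. Against cerebellum, 4 of the 9 NMDA and AMPA receptor subunits differed, by 2.85 for Grin2b, -1.04 for Gria1, -0.80 for Grin2a and -0.59 for Gria4. Of the 9 immediate early genes 2 had the higher change in cortex and 1 the lower, where 12 and 28 of all 84 genes did, by 1.45 for Egr2, 1.24 for Arc and -1.39 for Egr4. The change of Egr4 in cortex was thus above that in hippocampus and below that in cerebellum, where its pairs changed by 1.57, 2.23 and 2.05 in GF, CONV and BIF. Of 9 genes of adhesion, guidance and matrix 3 had the lower change in cortex and 1 the higher, near the share of all genes, the 3 being Ncam1 at -1.06, Ephb2 at -0.73 and Reln at -0.72. The remaining differences from cerebellum were 2.81 for Ngfr, 2.35 for Nptx2, 1.92 for Ppp1r14a, 0.53 for Cebpb and -2.45 for Adcy1. Of the genes named outside the rule, Timp1 differed from hippocampus by 0.93, and Bdnf, Grm4 and Prkca from cerebellum by -2.42, -2.16 and 0.36. In each region the ages lay on different plates, and the part of the plates in these differences was not tested.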

How the results depend on the processing

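The 27 higher and 24 lower genes depended most on the reference and on the number of pairs. With Gapdh alone 9 were higher and 40 lower, with 5 reference genes 13 were lower, and with the pathway median and the PCR control 11 and 6 were higher; a reference shifts all changes of a fit alike, by -0.31, 0.20, -0.18 and -0.46 in turn. All 24 lower and 23 of the 27 higher genes kept their sign with each reference, and 13 and 6 their call. With 1 pair left out, which leaves 2 pools a side, 9 to 21 were higher and 9 to 14 lower. At 1.5-fold or more in each pair, with no test, 8 were higher and 9 lower. Genes that differed from hippocampus numbered 17, 5 and 4 with Gapdh, the pathway median and the PCR control and 1 to 11 with a pair left out; from cerebellum 23 with the PCR control and 20 to 37 with a pair left out; the cause was not tested. Changes of sign were, among the genes of the naming rule, Gria4 at -0.12 with Gapdh and -0.27 with the PCR control, Grin1 at -0.0622 with the PCR control, and Grin2b at 0.0573, Gria1 at 0.0240 and Gria2 at 0.0207 with 5 reference genes; outside it Srf, Prkca and Ppp3ca were at -0.00889, -0.00556 and -0.0822 with the PCR control. With a pair left out Gria2 ran from -0.44 to 0.0163, the latter without GF, Adcy8 from -1.22 to 0.27, also without GF, and Tnf from -0.0325, without BIF, to 1.21. The median of the AMPA subunits was -0.30 with Gapdh, -0.17 with the pathway median, -0.45 with the PCR control and -0.0563 to 0.169 with a pair left out, the lowest without CONV, and that of the NMDA subunits -0.0622 with the PCR control. With 5 reference genes the median was 0.0373 for metabotropic receptors, 0.0857 for kinases, 0.0657 for other transcription regulators, 0.12 for neurotrophins and for all genes, and 0.17 for NF-kB with Tnf, which ran from -0.19 to 0.00875 with a pair left out, the highest without CONV. The filter on CT, which leaves out Tnf and Nfkbib, moved the median of NF-kB with Tnf from -0.035 to -0.495. Without the treatment block, that is with no pairing, 28 genes were higher and 24 lower, 26 and 23 of them shared, 36 of 36 named genes kept their call, and 11 and 34 genes differed from hippocampus and cerebellum. The filter on CT, the fit of 27 pools and the trended prior gave 29 and 25, 27 and 24, and 26 and 24 genes, and 35 of 35, 34 of 36 and 34 of 36 named genes kept their call, the exceptions being Egr4 and Fos in the fit of 27 pools and Ntf3 and Cebpd with the trended prior. With 1 pool per condition, effects of treatment on the age change could not be told from the spread, and CTs above 30 rest on little template.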
